A study of Mus musculus with 15 samples.

Results

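Glycine receptor subunits, the forebrain glycine transporter and the scaffold proteins of inhibitory synapses were examined in bulk RNA from the medial prefrontal cortex of Df(h15q13)/+ mice. The 8 genes were chosen by name, with earlier results of these data known, and were found by symbol among 54736 genes of the expression table. They are the receptor genes Glra2, Glra3 and Glrb, the transporter gene Slc6a9, and the scaffold and receptor-anchoring genes Gphn, Iqsec3, Shisa7 and Lhfpl4. All 8 had a mean of at least 1 TPM (a level scaled for transcript length and for the total of its library) and entered the test.

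Cortical micropunches came from male C57BL/6 mice aged 8 to 10 weeks. The titles name 7 WT and 8 KO libraries. WT stands for wild-type littermates, and KO for mice that carry 1 copy of a chromosome 7 deletion matching the human 15q13 microdeletion. The series' design text gives the group sizes the other way round, and the titles were followed. All 5 tested genes of the deleted interval (Chrna7, Otud7a, Klf13, Mtmr10 and Fan1) were lower in KO, with log2 fold changes from -1.13 to -0.83. As the labels name no single animal, a p-value here is set by how far libraries of a group differ, and part of that may be technical. Markers of excitatory neurons were present in every library. Their summed level over 8 genes was 4097 to 5012 TPM in WT and 4302 to 5126 TPM in KO. Striatal neuron markers were also detected, with a sum over 8 genes of 139 to 165 TPM in WT and 115 to 193 TPM in KO. In bulk tissue, fewer cells of a type and less RNA per cell cannot be told apart.

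Glycine receptors are chloride channels of the same family as GABA-A receptors and are built from α subunits with or without the β subunit. The β subunit, encoded by Glrb, carries the binding site for gephyrin, the protein that forms the lattice under inhibitory synapses and anchors both glycine and GABA-A receptors there. Fast glycine transmission prevails in spinal cord and brainstem. In the forebrain, GABA is the main inhibitory transmitter, and the α2 and α3 receptors are mostly described outside synapses.

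The difference between KO and WT passed the threshold of the test for none of the 8 genes. With limma and Benjamini-Hochberg adjustment over 18656 tested genes, 0 of the 8 passed, where 0.0268% of all tested genes did, and those were the 5 deleted genes. At an unadjusted limma p under 0.05, 2 of the 8 were counted, Glra2 with a higher mean and Iqsec3 with a lower one, against 11.9% of all tested genes (5.68% higher and 6.21% lower). The median difference over the 8 genes was -0.01 on the log2(TPM + 1) scale, beside 0.02 over all tested genes. For none of the 8 were the KO and WT ranges apart, a pattern found in 0.134% of tested genes. The 95% interval of the difference ran from 0.16 to 1.36 for Glra2, the widest of the 8, and from -0.06 to 0.18 for Lhfpl4, the narrowest.

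**Figure D1:**
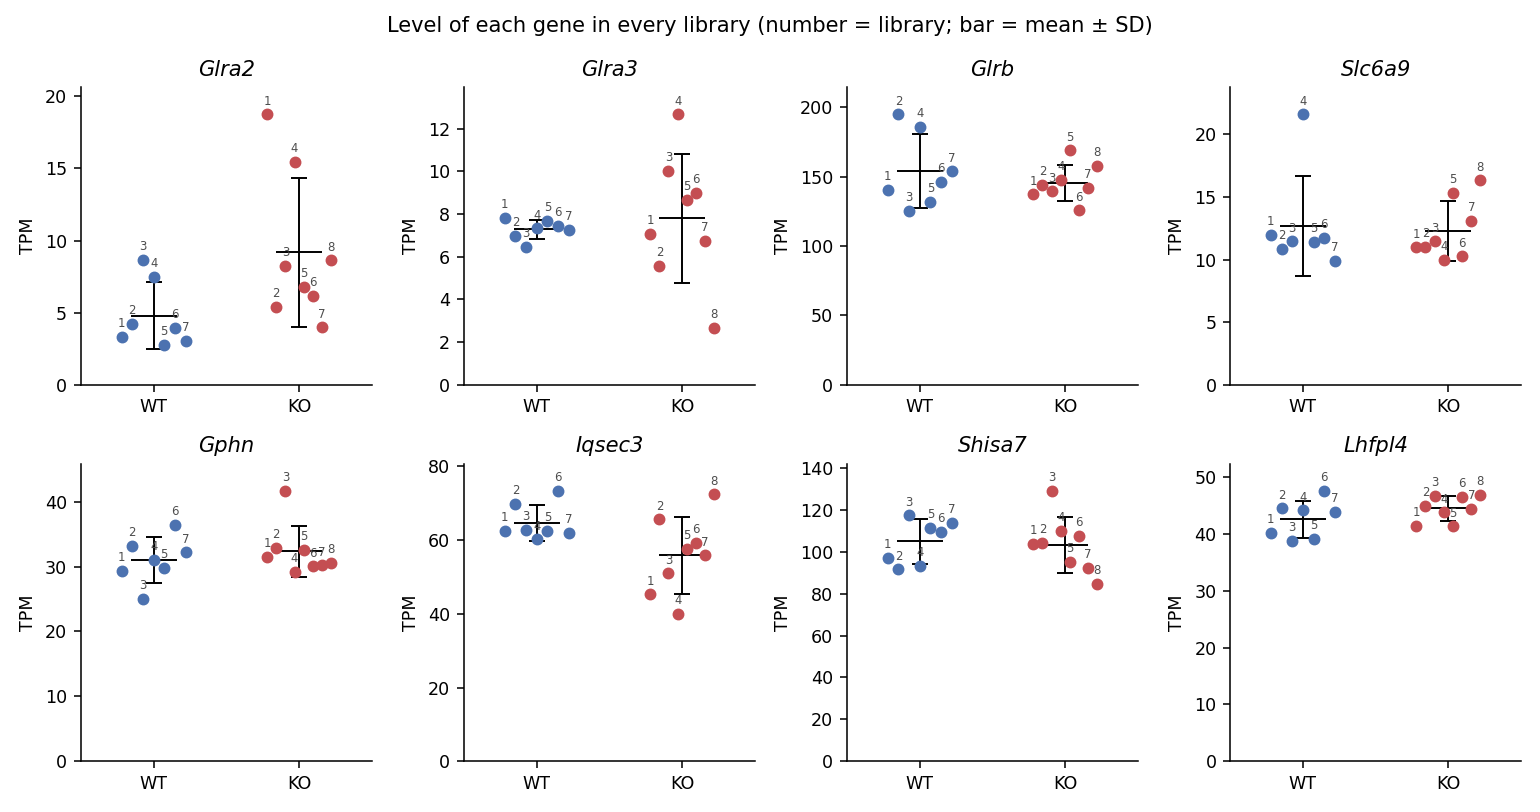
Level in TPM (linear axis from 0) of each of the 8 genes in every library, with WT in blue and KO in red. Points carry the library number, and the bar and whiskers are the mean ± SD of 7 WT or 8 KO libraries. Glra2 reached 18.8 TPM in KO 1 and 15.5 TPM in KO 4, above every WT library, while the ranges of the groups overlapped for all 8 genes.

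The levels of the 8 genes kept nearly the same order in every library. Glrb was the most abundant in all 15 libraries, Shisa7 ranked next in all 15 and Gphn was the fifth in all 15. In WT the mean levels were 154 TPM for Glrb, 105 for Shisa7, 64.8 for Iqsec3, 42.6 for Lhfpl4, 31.0 for Gphn, 12.7 for Slc6a9, 7.28 for Glra3 and 4.78 for Glra2. The WT ranges of neighbours in this order were apart except for Glra3 and Glra2, of which Glra3 was higher in 5 of 7 WT libraries. In KO the ranges of Glrb and Shisa7, Iqsec3 and Lhfpl4, Lhfpl4 and Gphn, Slc6a9 and Glra3, and Glra3 and Glra2 overlapped. Glra3 was the higher of the α genes in 5 of 8 KO libraries.

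Glra2 encodes the α2 subunit, the main α subunit of the developing brain, which can form channels without the β subunit. The gene lies on the minus strand of chromosome X (165129017 to 165327393, mm10; ENSMUSG00000018589), and no other annotated gene overlaps it. Its WT levels had a lowest value of 2.75, a median of 3.97 and a highest value of 8.67 TPM. In KO the lowest, median and highest values were 3.99, 7.50 and 18.8 TPM. The highest levels were those of KO 1 and KO 4, the only KO libraries above the WT maximum, and KO 7 alone lay below the WT mean. The mean was 4.78 ± 2.34 TPM in WT (SD, n = 7) and 9.18 ± 5.19 TPM in KO (SD, n = 8), which is 192% of WT. The log2 fold change of 0.76 ± 0.29 (SE) did not pass (limma, adjusted p = 0.366; unadjusted p = 0.0167). It was 0.60 without KO 1 and 0.64 without KO 4 (limma adjusted p = 0.573 and 0.455).

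The summed level of deep-layer markers was highest in the same libraries as Glra2, but not that of every single marker. Over 10 markers of layers 5 and 6 the sum was 115 to 205 TPM in WT and 139 to 407 TPM in KO, with 4 of 8 KO libraries above the WT maximum. None of the 10 markers was at 0 throughout. Of the 9 tested ones, 7 had a higher mean in KO, beside 10212 of all 18656 tested genes, and 0 passed the test. Without adjustment, 3 of the 9 were higher at a limma p under 0.05, where 5.68% of all tested genes were. KO 1 and KO 4 ranked first and second of the 15 libraries both for Glra2 and for the marker sum, at 407 and 291 TPM. Crym alone gave 179 and 119 TPM of these sums. WT 3 and WT 4, the WT libraries with most Glra2, also had the largest WT sums, 193 and 205 TPM. After KO 1 and KO 4, KO 8 had the next largest sum, 234 TPM, with Glra2 at 8.63 TPM, under the WT maximum. Crym, Fezf2 and Bcl11b were higher in KO 4 than in KO 8, and every other marker was higher in KO 8. Syt6, for example, was at 15.4 TPM in KO 8 and 5.15 TPM in KO 4. By unadjusted limma p under 0.05 the markers Crym, Foxp2 and Bcl11b were named, with log2 fold changes of 0.53 ± 0.22, 0.55 ± 0.26 and 0.40 ± 0.18 (SE; limma adjusted p = 0.388, 0.416 and 0.409). Crym, a thyroid hormone binding protein gene, was at 44.6 to 89.2 TPM over the WT libraries and at 59.6 to 179 TPM over the KO libraries, highest in KO 1 and then KO 4. Other markers went another way in the group difference: Ccn2 and Cplx3 had log2 fold changes of -0.29 and -0.01. Cplx3 was lowest of all 15 libraries in KO 4, at 3.122 TPM. Ccn2 was highest in KO 1, the library with the most Glra2, at 18.86 TPM. It was next highest in WT 5, the library with the least Glra2, at 17.48 TPM. As a share of the marker sum, a measure chosen after the values were seen, Glra2 was at a median of 2.87% (1.89% to 4.49%) in WT and 3.86% (2.75% to 5.31%) in KO, and 2 of 8 KO libraries exceeded the WT maximum. The part of these markers in the Glra2 values was not tested.

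**Figure D2:**
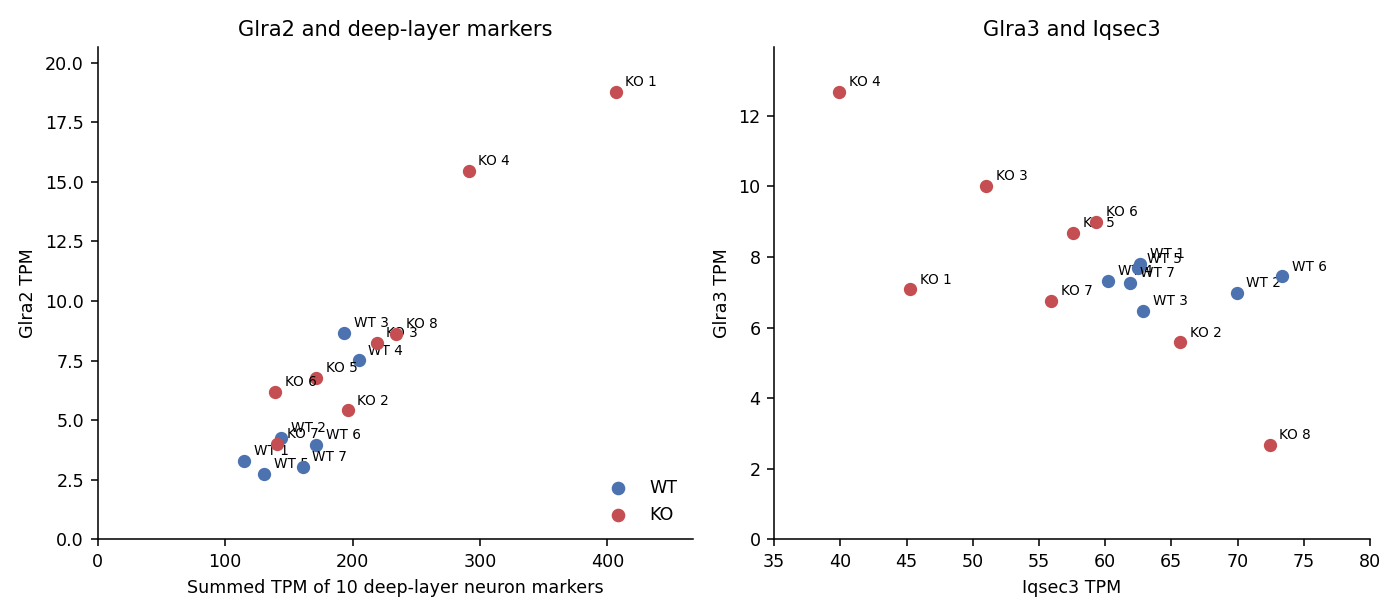
The left plot sets Glra2 (TPM) against the summed TPM of 10 deep-layer neuron markers, and the right plot sets Glra3 (TPM) against Iqsec3 (TPM, axis not from 0), with 1 point for each of 7 WT (blue) and 8 KO (red) libraries. KO 1 and KO 4 are highest on both axes at left, and at right KO 4 has the most Glra3 and the least Iqsec3 while KO 8 has the least Glra3.

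Glra3 encodes the α3 subunit, known from spinal pain pathways and the retina. It lies on the plus strand of chromosome 8 (55940460 to 56130070; ENSMUSG00000038257), and the pseudogenes Gm7351 and Gm45366 lie in its span without touching its exons. The WT libraries were close together, with a lowest value of 6.46, a median of 7.33 and a highest value of 7.80 TPM. The KO libraries were spread widely around the same centre, with a lowest value of 2.66, a median of 7.88 and a highest value of 12.7 TPM. Of the 8 KO libraries, 4 lay above the WT maximum and 2 below the WT minimum. The coefficient of variation was 6.19% in WT and 38.7% in KO, a difference in spread for which no test was made. The means of 7.28 ± 0.450 and 7.80 ± 3.02 TPM (SD, n = 7 and 8) differed by 0.0008 ± 0.20 on the log2 scale (SE; limma adjusted p = 0.999), with a 95% interval from -0.43 to 0.43.

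Glrb encodes the β subunit, which does not form channels by itself and links the receptor to gephyrin. It lies on the minus strand of chromosome 3 (80843599 to 80913660; ENSMUSG00000028020), free of overlapping genes. The WT libraries ran from 125 through a median of 146 to 195 TPM, and the KO libraries from 126 through 143 to 169 TPM. All 8 KO libraries lay inside the WT range. KO minus WT was -0.07 ± 0.09 on the log2 scale (SE; limma adjusted p = 0.752), with a 95% interval from -0.27 to 0.13. Leaving out 1 library moved it between -0.117, without WT 3, and -0.011, without WT 2.

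The β gene was far more abundant than the α genes together. The summed TPM of Glra1 to Glra4 was 12.4 ± 1.97 in WT (SD, n = 7) and 17.1 ± 6.69 in KO (SD, n = 8). Glra1, the α1 gene of adult spinal cord, supplied 2.50% of this sum in WT and 0.929% in KO, and it was listed at 0 in 3 libraries. Glra4 was listed at 0 in all 15. Glra2 held 37.1% ± 11.8 of the α sum in WT and 52.0% ± 14.5 in KO, and Glra3 held 60.3% ± 10.9 and 47.0% ± 14.4 (SD). A ratio of levels within 1 library does not depend on how that library was scaled. The ratio of Glra2 to Glrb had a median of 0.0235 in WT (0.0198 to 0.0692) and of 0.0519 in KO (0.0281 to 0.137). For Glra3 to Glrb the medians were 0.0510 and 0.0515. The ratio of Glra2 to Glra3 ran from 0.359 to 1.34 in WT and from 0.591 to 3.24 in KO, so both groups held libraries with more Glra2 and libraries with more Glra3. Only KO 1 and KO 4 were above the WT maximum for Glra2 to Glrb, and no test was made on these ratios.

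**Figure D3:**
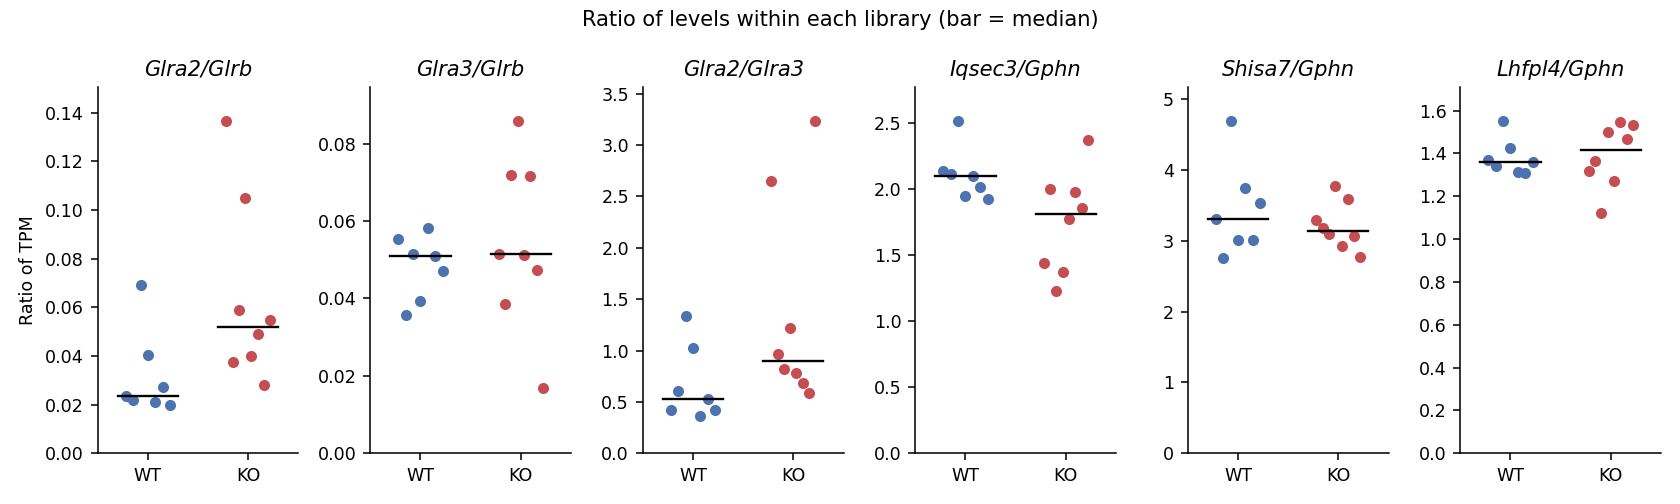
Ratio of TPM values within each library (linear axes from 0) for 3 pairs of glycine receptor subunits and 3 pairs of a scaffold gene with Gphn, with WT in blue, KO in red and the median as a bar. Glra2/Glrb had medians of 0.0235 in WT and 0.0519 in KO, and Iqsec3/Gphn had medians of 2.10 and 1.81, with overlapping ranges in all 6 panels.

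Slc6a9 encodes GlyT1, the transporter with which astrocytes and some glutamatergic terminals clear glycine, including the glycine that acts as co-agonist at NMDA receptors. It lies on the plus strand of chromosome 4 (117834506 to 117875198; ENSMUSG00000028542). Its exons overlap exons of B4galt2, Ccdc24 and Gm17114 on the opposite strand, and as no strand setting is given the reads of these genes cannot be told apart. The WT libraries had a lowest value of 9.89, a median of 11.45 and a highest value of 21.6 TPM, and the KO libraries 9.985, 11.2 and 16.3 TPM. WT 4 stood apart at 21.6 TPM, with all other WT libraries at 11.95 TPM or less. The overlapping B4galt2 was at 83.2 TPM in WT 4 and at 55.2 to 131 TPM over WT. The log2 fold change of Slc6a9 was -0.02 ± 0.14 (SE; limma adjusted p = 0.962), and it turned positive without WT 4, at 0.11, without KO 4, at 0.02, or without KO 6, at 0.01. The summed level of 12 astrocyte markers was 2173 to 2828 TPM in WT and 1850 to 2423 TPM in KO, with 10 of 12 markers at a lower mean in KO, beside 8444 of all 18656 tested genes. None of the 12 passed the test, and 7 of the 12 were lower at an unadjusted limma p under 0.05, where 6.21% of all tested genes were. WT 4, with the most Slc6a9, had the lowest WT marker sum, 2173 TPM. KO 4, with the least Slc6a9 among the KO libraries, had the lowest KO sum, 1850 TPM. The part of these markers in the Slc6a9 values was not tested.

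Gphn encodes gephyrin, which also completes the synthesis of the molybdenum cofactor. It spans 458394 bases on the plus strand of chromosome 12 (78226379 to 78684772; ENSMUSG00000047454), the longest of the 8 genes. An exon of the noncoding Gm48226 overlaps it on the opposite strand, with 1.755 to 4.831 TPM over all libraries. WT levels had a lowest value of 24.99, a median of 31.0 and a highest value of 36.4 TPM, and KO levels 29.2, 31.05 and 41.65 TPM. KO 3 held the highest value and the other KO libraries lay inside the WT range. The difference was 0.06 ± 0.08 on the log2 scale (SE; limma adjusted p = 0.769), with a 95% interval from -0.12 to 0.24, and it was 0.007 without KO 3.

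Iqsec3 encodes an exchange factor for the GTPase Arf6 that binds gephyrin and is placed at inhibitory synapses. It lies on the minus strand of chromosome 6 (121372933 to 121473678; ENSMUSG00000040797). WT libraries ran from 60.2 through a median of 62.6 to 73.4 TPM. KO libraries ran from 39.9 through 56.8 to 72.4 TPM. KO 4, KO 1 and KO 3 were the lowest, 6 of 8 KO libraries lay below the WT minimum, and KO 8 and KO 2 lay inside the WT range. The mean was 64.8 ± 4.89 TPM in WT and 55.9 ± 10.5 TPM in KO (SD, n = 7 and 8), 86.3% of WT. The log2 fold change of -0.23 ± 0.10 (SE) did not pass (limma, adjusted p = 0.413; unadjusted p = 0.0446), and it was -0.16 without KO 4. The ratio of Iqsec3 to Gphn had a median of 2.10 in WT (1.92 to 2.52) and 1.81 in KO (1.23 to 2.37), with 5 of 8 KO libraries under the WT minimum. Among inhibitory neuron markers, 13 of 15 had a lower mean in KO, beside 8444 of all 18656 tested genes. Without adjustment, 5 of the 15 were lower at a limma p under 0.05, where 6.21% of all tested genes were, and 0 passed the test. These markers summed to 1380 to 1601 TPM in WT and 1113 to 1692 TPM in KO, lowest in KO 4 and highest in KO 8. Other libraries did not keep the order of Iqsec3. KO 1, with Iqsec3 at 45.3 TPM, had a marker sum of 1423 TPM, inside the WT range. KO 6, with Iqsec3 at 59.3 TPM, had a sum of 1297 TPM, under the WT minimum. The part of these markers in the Iqsec3 values was not tested.

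Shisa7 encodes an auxiliary protein of GABA-A receptors that shapes their kinetics and trafficking. It lies on chromosome 7, as the deletion does, but is not one of the deleted genes (4825552 to 4844696, minus strand; ENSMUSG00000053550). WT libraries had a lowest value of 91.6, a median of 109.5 and a highest value of 117 TPM, and KO libraries 84.7, 104 and 129 TPM. KO 3 lay above and KO 8 below the WT range. Its log2 fold change was -0.02 ± 0.08 (SE; limma adjusted p = 0.911), with a 95% interval from -0.20 to 0.16. It turned to 0.004 without WT 3 and to 0.015 without KO 8. The ratio of Shisa7 to Gphn was 2.76 to 4.70 in WT and 2.77 to 3.76 in KO.

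Lhfpl4, also called GARLH4, encodes a membrane protein that joins GABA-A receptors to neuroligin-2 at the synapse. It lies on the minus strand of chromosome 6 (113168090 to 113195384; ENSMUSG00000042873), as Iqsec3 does. WT libraries ran from 38.8 through a median of 43.8 to 47.6 TPM and KO libraries from 41.35 through 44.65 to 46.86 TPM. All 8 KO libraries were inside the WT range. On the log2 scale the difference was 0.06 ± 0.06 (SE; limma adjusted p = 0.634), and the 95% interval from -0.06 to 0.18 was the narrowest of the 8 genes. The ratio of Lhfpl4 to Gphn was 1.31 to 1.55 in WT and 1.12 to 1.55 in KO.

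**Figure D4:**
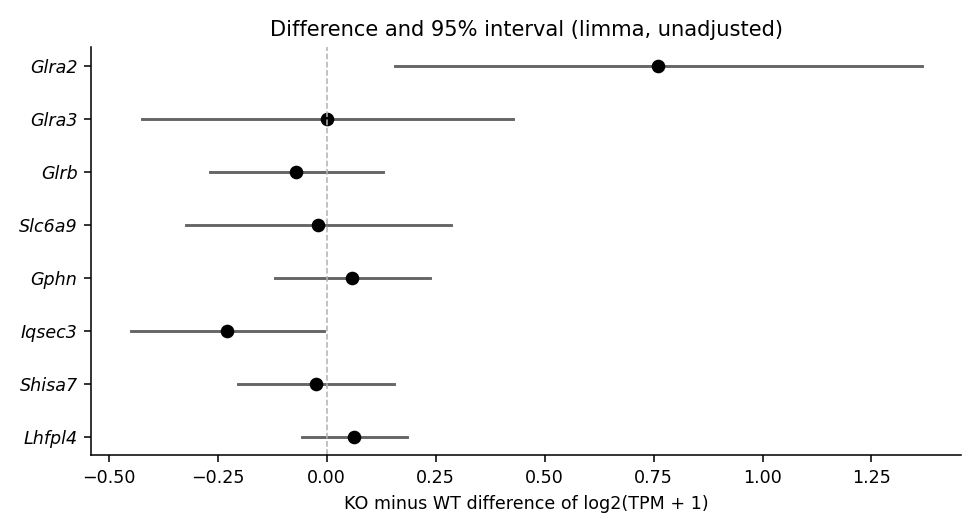
KO minus WT difference of log2(TPM + 1) for the 8 genes (points) with its unadjusted 95% interval from limma (lines), n = 7 WT and 8 KO libraries. The intervals of Glra2 (0.16 to 1.36) and Iqsec3 (-0.45 to -0.01) leave out 0 before adjustment, and 0 of the 8 genes passed after it.

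The spread between libraries, pooled over both groups, was largest for Glra2 among the 8 genes and smallest for Lhfpl4. For Glra3 it came from KO, since its WT coefficient of variation of 6.19% was the lowest of the 8, below 7.55% for Iqsec3 and 7.67% for Lhfpl4. The pooled SD of log2(TPM + 1) within groups was 0.61 for Glra2, larger than for 95.8% of tested genes, and 0.43 for Glra3, larger than for 90.0%. Slc6a9 was at 0.30 (76.5%), Iqsec3 at 0.21 (53.9%) and Glrb at 0.19 (43.2%). Shisa7 was at 0.17 (31.7%), Gphn at 0.16 (28.9%) and Lhfpl4 at 0.090 (1.75%). The spread of Lhfpl4 was also small against the 5270 genes within 2-fold of its level, of which 2.87% had a smaller SD. Glra2 exceeded 95.8% of the 5211 genes near its level.

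**Figure D5:**
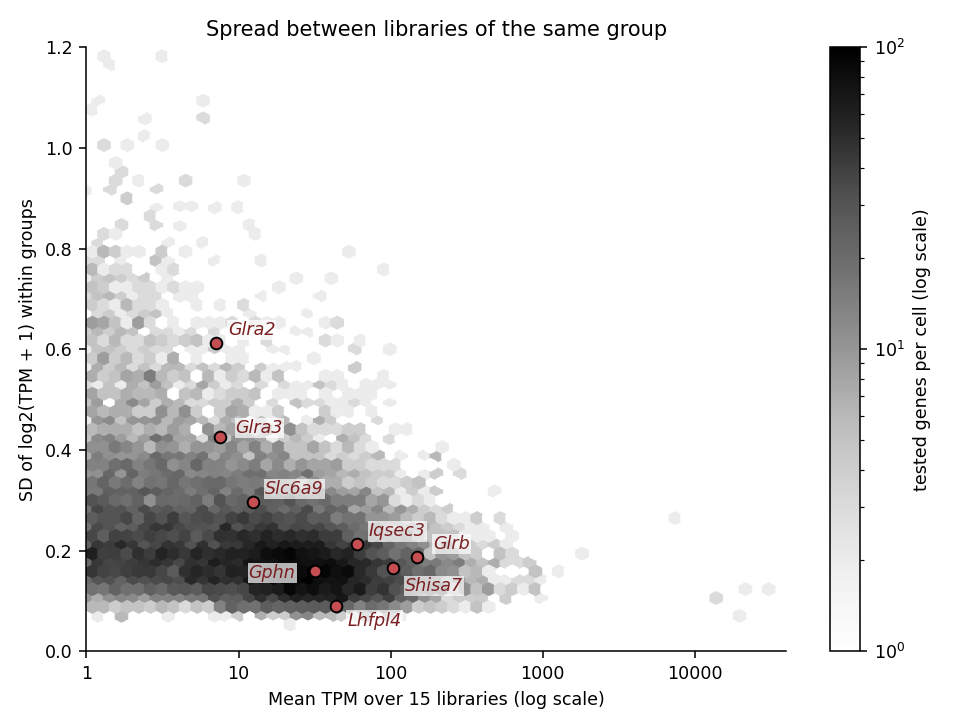
SD of log2(TPM + 1) within groups, pooled over WT and KO, against mean TPM over 15 libraries (log axis) for the tested genes, shaded by their number, with the 8 genes in red; 124 genes with an SD above 1.2 are not drawn. Glra2 (0.61) and Glra3 (0.43) stand above most genes of their level and Lhfpl4 (0.090) stands near the lower edge.

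Library by library, the 8 genes did not move as one group. After the group means were subtracted, Pearson's r over the 15 libraries, given as a description of likeness, was 0.60 between Gphn and Lhfpl4 and 0.55 between Glra3 and Shisa7. It was -0.735 between Glra3 and Iqsec3, -0.623 between Glrb and Shisa7, -0.597 between Slc6a9 and Shisa7 and -0.545 between Glra2 and Iqsec3. Between the receptor genes it was 0.12 for Glra2 with Glra3, 0.05 for Glra2 with Glrb and -0.14 for Glra3 with Glrb. The tested genes most like each member by this measure were then named. Glra2 was nearest to Spon1, a secreted matrix protein gene, at 0.92 and Wwox, an oxidoreductase gene, at 0.92. For Glra3 they were Plxnc1, a semaphorin receptor gene, at 0.93 and Acvr2a, an activin receptor gene, at 0.93. Iqsec3 was nearest to the perineuronal link protein gene Hapln4 at 0.90 and the adhesion receptor gene Adgrb1 at 0.89. Glrb was nearest to the translation factor gene Eif1ax and to Nceh1, both at 0.90. For Gphn they were the exocyst gene Exoc8 and the sorting receptor gene Sorcs1, at 0.87 and 0.86. Shisa7 was nearest to Zfp423 and Sltm at 0.89 and 0.86, Lhfpl4 to Cyb561a3 and Mir409 at 0.90 and 0.86, and Slc6a9 to Gdpgp1 and Fgf5 at 0.84 and 0.83. These are the highest of many values over few libraries, and the marker sums of cell types differed between the libraries. No test was made on these r values.

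No other gene that handles glycine passed the test. Of 9 other receptor and transporter genes, 4 were tested, and all 4 had a lower mean in KO, beside 8444 of all 18656 tested genes. None of the 4 passed after adjustment or at an unadjusted limma p under 0.05, where 0.0268% and 11.9% of all tested genes did. Slc6a5, the glycine transporter of spinal inhibitory neurons, had means of 0.0186 TPM (WT) and 0.0259 TPM (KO). Slc32a1, which loads GABA and glycine into vesicles, had means of 35.2 ± 2.56 (WT) and 33.2 ± 5.27 TPM (KO; SD). Of 8 genes of glycine synthesis and cleavage, 7 were tested with a median log2 fold change of 0.05, and 0 passed after adjustment. Gldc, the decarboxylase of the glycine cleavage system, was the only 1 of the 7 with an unadjusted limma p under 0.05. Gldc was lower in KO at that p, where 6.21% of all tested genes were lower. Its mean was 12.4 ± 1.32 TPM in WT against 10.1 ± 1.495 TPM in KO (SD, n = 7 and 8), and the log2 fold change was -0.28 ± 0.09 (SE; limma adjusted p = 0.315). Gldc is strong in astrocytes, whose marker sums are given with Slc6a9, and their part in this value was not tested.

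Adhesion and scaffold genes of the inhibitory postsynapse were tested in full, 22 of 22. Of these, 8 had a higher and 14 a lower mean in KO, the median was -0.05, and 0 passed after adjustment. At an unadjusted limma p under 0.05, 1 of the 22 was higher and 5 were lower, where 5.68% and 6.21% of all tested genes were. Dynll1, a dynein light chain that binds gephyrin, had means of 129.6 ± 19.2 TPM (WT) and 167 ± 30.1 TPM (KO). Its difference was 0.35 ± 0.11 on the log2 scale (SE, limma adjusted p = 0.311). Dynll2, the other dynein light chain gene of the list, had means of 279 TPM (WT) and 282 TPM (KO). The difference of Dynll2 was 0.02 ± 0.07 (SE, limma adjusted p = 0.913). Dag1, the dystroglycan gene, had 48.8 ± 6.93 and 39.8 ± 4.12 TPM (-0.28 ± 0.09; limma adjusted p = 0.321). The adhesion gene Igsf9b had a log2 fold change of -0.48 ± 0.19 and Trak1, a motor adaptor gene, -0.31 ± 0.13 (limma adjusted p = 0.377 and 0.388). Dag1 is also expressed in glial and vessel cells. All 8 endothelial markers had a lower mean in KO, beside 8444 of all 18656 tested genes, and 0 passed the test. Without adjustment, 7 of the 8 were lower at a limma p under 0.05, where 6.21% of all tested genes were. The marker sums were 153 to 231 TPM in WT and 103 to 186 TPM in KO, with 6 of 8 KO libraries under the WT minimum. The part of these markers in the Dag1 value was not tested. Of 12 GABA-A receptor subunit genes, all tested, 6 had a higher and 6 a lower mean, and 0 had an unadjusted limma p under 0.05.

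Enzymes that act on gephyrin and the pathway that gephyrin completes were also counted. Of 13 modifying enzymes and carriers, all tested, 6 had a higher and 7 a lower mean, and 0 passed after adjustment. At an unadjusted limma p under 0.05, 3 of the 13 were lower, where 6.21% of all tested genes were. Gsk3b, a kinase that phosphorylates gephyrin, had a mean of 48.0 ± 20.7 TPM in WT against 25.4 ± 8.71 TPM in KO (SD, n = 7 and 8), a difference of -0.86 ± 0.23 on the log2 scale (SE; limma adjusted p = 0.271). The kinesin gene Kif5b had -0.17 ± 0.07 and the kinase gene Camk2a -0.20 ± 0.08 (limma adjusted p = 0.388 for each). Of 10 molybdenum cofactor genes, 9 were tested, 6 had a higher mean, the median was 0.09, and 0 passed after adjustment. Without adjustment, 2 of the 9 were higher at a limma p under 0.05, where 5.68% of all tested genes were. Mocs3 and Mocs1, which act upstream of gephyrin in the pathway, had log2 fold changes of 0.22 ± 0.07 and 0.37 ± 0.14 (SE; limma adjusted p = 0.33 and 0.369).

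Relatives of the anchoring genes were set beside them. Of 14 genes of the Iqsec, Shisa and Lhfpl families, 11 were tested, 3 had a higher and 8 a lower mean, and 0 passed after adjustment. Lhfpl5 and Shisa2, 2 of the 11, were higher at an unadjusted limma p under 0.05, where 5.68% of all tested genes were. Iqsec1 and Iqsec2, whose proteins sit mainly at excitatory synapses, were at 187 and 115 TPM in WT, above Iqsec3 at 64.8 TPM. Their log2 fold changes were -0.06 ± 0.11 and -0.09 ± 0.06 (SE), beside -0.23 ± 0.10 for Iqsec3, and the difference between these values was not tested. Lhfpl5, best known from the mechanotransduction complex of inner ear hair cells, had 3.57 ± 0.840 TPM in WT against 5.96 ± 1.24 TPM in KO (SD), which is 0.61 ± 0.13 on the log2 scale (SE; limma adjusted p = 0.206). Shisa2 had 0.31 ± 0.13 (limma adjusted p = 0.379).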

How the data were processed

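The deposited table holds TPM per Ensembl gene ID and library. The tools named by the submitters' processing notes are HISAT2, StringTie and Trimmomatic, with the mm10 build. Their versions, the annotation and the strand setting were not given in the sources. TPM keeps no read depth, so the depth is unknown and precision comes from the spread between libraries. GENCODE M21 symbols matched 54723 of 54838 rows, and rows sharing a symbol were summed. A mean of 1 TPM or more over the 15 libraries was required for testing on log2(TPM + 1), a scale that understates changes of low genes, with limma 3.58.1 in R 4.3.3 (moderated two-sided test with trend), Benjamini-Hochberg adjustment over all tested genes and a threshold of 0.05. The fit was checked on simulated data. The members and lists were chosen with earlier results of these data known. Named were the members, up to 4 list genes of lowest unadjusted p under 0.05, and the 2 genes most like each member. Glra1, Glra4, Slc6a5, Slc32a1, Ccn2, Cplx3, Syt6, Fezf2, Dynll2, Iqsec1 and Iqsec2 were named after their values were seen. Alternatives were other pseudocounts, filters, scalings, weights, a replicate block, the highest-mean row for shared symbols, and libraries left out. No sequences are shown.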

Additional observations from a re-analysis of the deposited data

Results flagged for a closer look

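Of 16 gene and group combinations examined, 2 held a library far from the others of its group by Dixon's criterion on log2(TPM + 1), which flags about 1 in 20 groups by chance. Slc6a9 in WT 4 was at 21.6 TPM, with the next WT library at 11.95 TPM, and the gap was 0.762 of the group's range. Gphn in KO 3 was at 41.7 TPM, with the next KO library at 32.9 TPM, and the gap was 0.668 of the range.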

How the results depend on the processing

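The count of 0 members past the threshold stayed at 0 under all 25 alternatives, and the count at an unadjusted p under 0.05 ranged from 1 to 2. Glra2, Glrb, Gphn, Iqsec3 and Lhfpl4 kept their direction in all 25. The log2 fold changes were 0.57 to 0.90 for Glra2 and -0.28 to -0.16 for Iqsec3, with lowest limma adjusted p of 0.205 and 0.173. Changing the filter or the row kept for shared symbols left the log2 fold changes of the members as they were. Those settings could not turn a sign. The sign of Glra3 turned with pseudocounts of 0.1 (-0.016) and 0.5 (-0.007) and with median-of-ratios scaling (-0.015), and without WT 2, WT 3, KO 3, KO 4, KO 5 or KO 6; leaving out 1 library gave -0.103 to 0.169. Shisa7 turned with array weights (0.007), the replicate block (0.015) and without KO 1 and KO 8 (0.018). Leaving out 1 library gave -0.071 to 0.015 for Shisa7 and -0.077 to 0.107 for Slc6a9. No WT library is numbered 8, so KO 8 has no part in the difference under the replicate block. The log2 fold changes of the members there equal those without KO 8, and the 2 settings are not separate checks. The cause of the other turns was not tested. With the replicate number as a block the gene test called 8 genes in place of 5, 0 of them members; 4 of the 8 were deleted genes, Fan1 lost its call, and Flt1, Fbln5, Gm42738 and Slc26a4 gained one. Same-numbered WT and KO libraries correlated at -0.0425 to 0.122 and none correlated best with its own number, so the numbers were not taken as pairs.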

Other observations

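KO 8 combined extreme values of several genes. It held the lowest Glra3 level of all libraries, 2.66 TPM, the lowest Shisa7 level, 84.7 TPM, and the highest Iqsec3 level among KO, 72.4 TPM. The summed level of 7 upper-layer neuron markers was 462 TPM in this library, against 656 to 889 TPM in WT and 725 to 852 TPM in the other 7 KO libraries. Its 9 oligodendrocyte markers summed to 1367 TPM, against 403 to 548 TPM in WT and 912 TPM in KO 1, the next highest library. The relation between these values was not tested.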
